A study of Mus musculus with 4 samples.

Results

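The mRNAs described here are the 6 transcripts of the mitochondrial heavy strand that encode subunits of respiratory complex I, namely mt-Nd1, mt-Nd2, mt-Nd3, mt-Nd4l, mt-Nd4 and mt-Nd5. They were selected by their gene symbols, and all 6 were found among the 16472 genes of the table. To identify RNAs of muscle mitochondria, RNA of wild-type (WT) mouse skeletal muscle was sequenced in 2 libraries of isolated mitochondria and 2 libraries of a fraction labelled as tissue without mitochondria. The titles of the latter speak of total tissue, so this fraction is called remaining tissue here, and whether it was depleted of mitochondria or whole is not settled. The labels give no age, strain or transgene for either group, and their treatment entry names only the fraction. According to the methods of the study, mitochondria isolated from hearts were treated with digitonin and RNase A before RNA isolation. Whether the mitochondria of skeletal muscle were treated in the same way is not said. It is also not said whether the 2 libraries of a group came from separate animals, so p-values measure the spread between these libraries, which may be technical.

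Complex I (NADH:ubiquinone oxidoreductase) passes electrons from NADH to ubiquinone and pumps protons across the inner mitochondrial membrane. Most of its subunits are encoded in the nucleus, but 7 hydrophobic subunits of the membrane arm are encoded in the mitochondrial genome. All of these except mt-Nd6 are transcribed from one promoter region as parts of a long heavy-strand precursor, from which tRNAs between the mRNAs are cut out. Their synthesis is thereby coupled, and the steady level of each also depends on processing and turnover. Muscle is among the tissues with a high demand for respiration.

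In the order of the genome (GRCm38, chromosome M, plus strand), mt-Nd1 lies at 2751 to 3707 and mt-Nd2 at 3914 to 4951, near the start of the coding part and upstream of mt-Co1. Next among complex I genes, mt-Nd3 lies at 9459 to 9806, mt-Nd4l at 9877 to 10173, mt-Nd4 at 10167 to 11544 and mt-Nd5 at 11742 to 13565, between mt-Co3 and mt-Cytb. Each gene is a single exon of coding sequence without introns, and lengths run from 297 nt for mt-Nd4l to 1824 nt for mt-Nd5. Most ends abut a tRNA gene. The gap before mt-Nd1 (after mt-Tl1), before mt-Nd2 (after mt-Tm), before mt-Nd3 (after mt-Tg) and before mt-Nd5 (after mt-Tl2) is 0 nt. The first 30 bases of each mRNA are shown, with the annotated start codon in capitals, because the codons differ between the members (RefSeq was not used; sequences are from the GENCODE M21 transcripts of GRCm38).
mt-Nd1: GTGttctttattaatatcctaacactcctc
mt-Nd2: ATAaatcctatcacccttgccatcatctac
mt-Nd3: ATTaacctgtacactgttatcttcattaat
mt-Nd4l: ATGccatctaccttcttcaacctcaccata
mt-Nd4: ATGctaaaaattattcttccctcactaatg
mt-Nd5: ATCaatattttcacaacctcaatcttatta
Only mt-Nd4l and mt-Nd4 of the 6 start with ATG in this annotation. The G content of the listed strand was 8.0% for mt-Nd2 and at most 11.6% (mt-Nd1) among the 6, while that of mt-Nd6, which is read from the other strand, was 28.1%.

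The only overlap between members joins mt-Nd4l to mt-Nd4, which are read from 1 bicistronic mRNA. Their shared 7 bases are in capitals in the last 24 bases of mt-Nd4l and the first 24 bases of mt-Nd4. At the other end, mt-Nd5 overlaps mt-Nd6 on the opposite strand by 14 nt, in capitals in the last 24 bases of each on its own strand.
mt-Nd4l: aatctcaacctactacaATGCTAA
mt-Nd4: ATGCTAAaaattattcttccctca
mt-Nd5: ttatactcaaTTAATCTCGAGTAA
mt-Nd6: attatcgagaTTACTCGAGATTAA
The library kit keeps strand, but the strand setting of the counting was not stated in the sources used here. Counts of mt-Nd6 are therefore uncertain, since reads of heavy-strand RNA across its locus would be included if strand was not used.

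Several members have annotated copies in the nuclear genome, and counts of these copies bear on how each level can be read. Transcripts that shared at least 100 nt at 95% identity or more were searched. This found Gm13339 on chromosome 2 for mt-Nd2 (510 nt at 96.667%) and Gm4076 on chromosome 13 for mt-Nd5 (954 nt at 95.178%). On chromosome 1, within 24611535 to 24613119 on the minus strand, it found Gm28438 for mt-Nd3 (345 nt), Gm10222 for mt-Nd4l (294 nt) and Gm28439 for mt-Nd4 (876 nt). The matches of Gm10222 and Gm28439 were identical to the mRNA, and Gm28438 differed from mt-Nd3 by 1 substitution, T3C, counted from the first base of the mRNA. The start of this copy is shown for comparison with mt-Nd3 above, with the bases at the place of the start codon in capitals.
Gm28438: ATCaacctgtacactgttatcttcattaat
No such copy was found for mt-Nd1 among the 141767 annotated transcripts compared. Of all 75-nt windows, which is the read length, 97.8% of those of mt-Nd3, 98.7% of mt-Nd4l and 61.5% of mt-Nd4 also occurred without mismatch in another transcript. This share was 5.7% for mt-Nd2, 1.7% for mt-Nd5 and 0.0% for mt-Nd1.

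Counts of the copies of mt-Nd4l and mt-Nd3 were close to those of the mRNAs, while that of mt-Nd4 was lower. Gm10222 held 1.024 and 1.014 times the count of mt-Nd4l in remaining tissue and 0.999 and 1.007 times in isolated mitochondria (replicates 1 and 2). For Gm28438 and mt-Nd3 the ratios were 1.018, 0.967, 1.011 and 1.022 in the same order of libraries. Gm28439, which matches the first 876 nt of mt-Nd4, held 0.315, 0.300, 0.276 and 0.285 times the count of mt-Nd4. The diverged copies were low, with ratios of 0.051 to 0.073 for Gm13339 and 0.002 for Gm4076 in each library. According to the methods of the study, reads with several placements were left out, but the files hold many counts on windows that cannot be placed once. Whether such reads were divided between both places, counted at each, placed at random or left out in part is not settled. Levels are therefore given without the copies and, where this changes the reading, with the counts of the copies added to the mRNA.

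**Figure D1:**
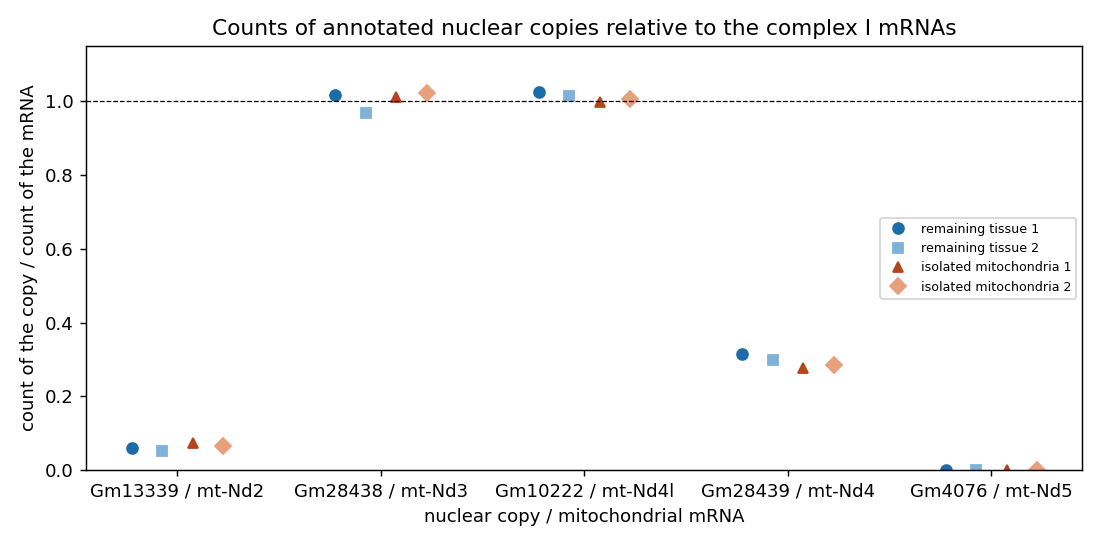
Count of each annotated nuclear copy divided by the count of the complex I mRNA it matches (vertical axis, a ratio without unit), with 1 point per library; the dashed line marks equal counts. The copies of mt-Nd3 and mt-Nd4l sit at 0.967 to 1.024, that of mt-Nd4 at 0.276 to 0.315, and those of mt-Nd2 and mt-Nd5 at 0.073 or below.

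Across the series, the libraries of isolated mitochondria held 42749263 and 35306106 reads assigned to genes. For remaining tissue, 15704036 and 15301865 reads were estimated. In isolated mitochondria replicates differed beyond counting noise, with a chi-square per degree of freedom of 88.2 over 4956 genes. For remaining tissue it was 8.42 over 16155 genes. That value rests on reads estimated from rounded values with 1 factor for both libraries, so rounding is part of it. Genes of the mitochondrial genome took 94.12 to 95.28% of counts in isolated mitochondria and 20.53 to 22.31% in remaining tissue. All 9 markers of skeletal muscle were detected, and their summed level was 234000 to 237000 ppm of all counts in remaining tissue and 171 to 329 in isolated mitochondria, with 8 of 9 lower by limma. Of the other cell types, 5 of 5 fibroblast markers tested and 2 of 3 macrophage markers were higher in isolated mitochondria under the deposited scaling, although their summed level in ppm was lower there (fibroblast markers 693 to 758 in remaining tissue and 25.7 to 103 in isolated mitochondria; macrophage markers 28.7 to 35.9 and 0.840 to 2.89). Over all genes tested under this scaling, 7.32% were called higher and 9.3% lower. Of 2 nerve markers tested 1 was higher, 1 of 4 endothelial markers was lower, and none of 2 blood and 2 adipocyte markers passed the threshold. The part of these cells in the results for complex I mRNAs was not tested.

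To ask how the 6 mRNAs differed between the fractions, normalized counts were compared first. The values are counts divided by a size factor per library, which sets the median nuclear gene about level between groups. All 6 were higher in isolated mitochondria, with no overlap between groups, beside 25.5% of all genes tested that were higher without overlap. mt-Nd1, a core subunit at the foot of the membrane arm near the ubiquinone site, had 10615 and 9908 normalized counts in remaining tissue and 6241505 and 3248327 in isolated mitochondria. mt-Nd2, one of the antiporter-like proton-pumping subunits, had 6917 and 6463 against 2998621 and 1409404. These libraries showed the same order for both genes, with replicate 1 of isolated mitochondria the highest of the 4. mt-Nd4, also antiporter-like, had 8044 and 7501 normalized counts against 4348934 and 2387949. mt-Nd5, the antiporter-like subunit at the far end of the membrane arm, had 13225 and 12107 against 5594254 and 3601818. The small membrane subunits had the lowest counts of the 6 in every library. mt-Nd4l, the shorter partner of mt-Nd4 on the shared mRNA, had 1230 and 1178 against 884772 and 536752. mt-Nd3, which carries a loop near the ubiquinone site that moves between states of the enzyme, had 400 and 426 against 214854 and 124586.

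The log2 fold changes (isolated mitochondria minus remaining tissue, on log2 of the normalized count plus 1) lay between 8.26 and 9.16. By limma over the 6916 genes with a mean of at least 20, 6 of 6 were higher with an adjusted p below the threshold of 0.05, beside 7.32% of all genes tested. The change was smallest for mt-Nd2 (8.26, SE 0.45, adjusted p = 0.00538) and largest for mt-Nd4l (9.16, SE 0.31, adjusted p = 0.00269). In between were mt-Nd5 at 8.47, mt-Nd3 at 8.63, mt-Nd4 at 8.70 and mt-Nd1 at 8.78, with adjusted p of 0.00311 to 0.00366. mt-Nd6 was also higher (7.98, SE 0.18, adjusted p = 0.00241), as were the 6 other heavy-strand mRNAs. The median over all genes tested was -0.44. The size of these changes rests on the scaling. After scaling by the summed count of all genes, the median over all genes moved to -7.27 and the 6 changes to 1.36 (mt-Nd2) to 2.26 (mt-Nd4l), still with 6 of 6 higher. As a share of all counts the 6 mRNAs together took 1.81 and 1.73% in remaining tissue and 5.24 and 6.33% in isolated mitochondria, a ratio of the means of 3.26. The other 6 heavy-strand mRNAs rose from 2.36 and 2.19% to 7.74 and 9.69%, a ratio of 3.82.

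**Figure D2:**
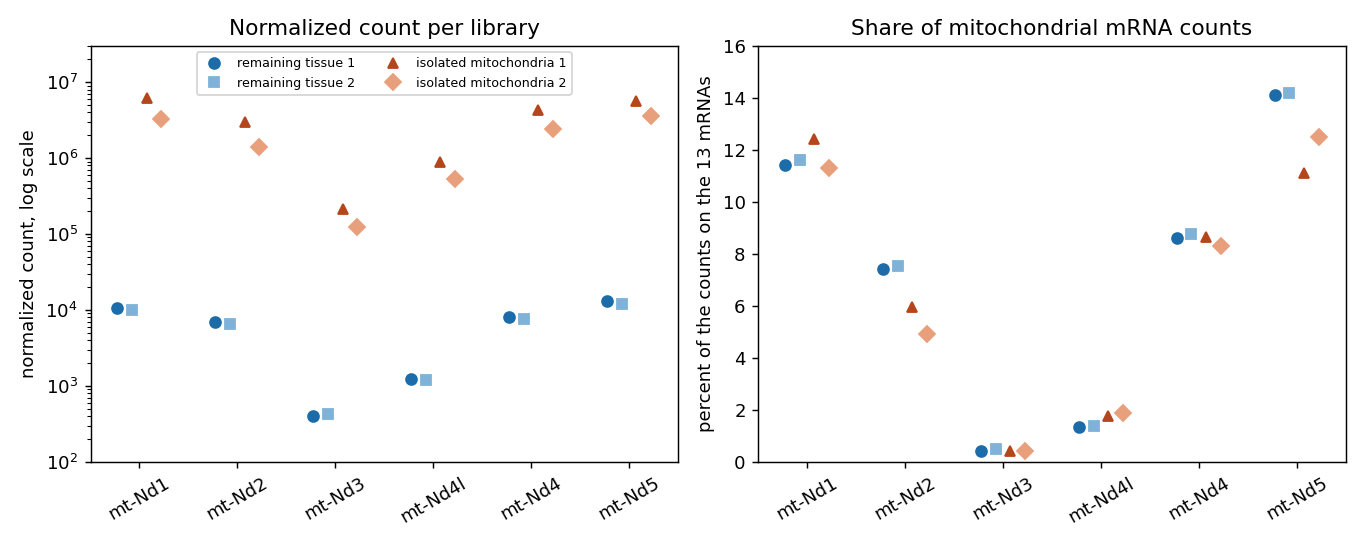
Left, normalized count of each complex I mRNA (log axis); right, its count as a percent of the counts on all 13 mitochondrial mRNAs (linear axis from 0); 1 point per library. Counts of isolated mitochondria lie above those of remaining tissue for every gene, while shares of the mRNA pool span a common range, with mt-Nd2 and mt-Nd5 lower and mt-Nd4l higher in both libraries of isolated mitochondria.

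To compare the fractions free of how much mitochondrial RNA each one held, counts were expressed as a share of the 13 mitochondrial mRNAs. Together the 6 mRNAs took 43.2 and 43.9% of these counts in remaining tissue (43.6% ± 0.484, SD, n = 2) and 40.3 and 39.4% in isolated mitochondria (39.9% ± 0.637, SD, n = 2). The groups did not overlap, and the difference exceeded both SDs. With 2 libraries against 2, the smallest two-sided p of an exact permutation test is 0.333, so no permutation test of shares was run, and the limma fit given after the shares is the only test on this scale. The other 6 heavy-strand mRNAs moved the other way, from 56.0% ± 0.515 to 59.9% ± 0.564. This is not a separate observation, since the shares of the 13 mRNAs have a fixed sum. Counting error of the members' shares was small, with a 95% Wilson interval of at most ±0.09 percentage points, which covers counting error only.

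Within the 6, mt-Nd2 and mt-Nd5 had a lower share in isolated mitochondria and mt-Nd4l a higher one. mt-Nd2 took 7.40 and 7.55% of mRNA counts in remaining tissue and 5.96 and 4.91% in isolated mitochondria. mt-Nd5 took 14.1 and 14.2% against 11.1 and 12.5%. mt-Nd4l took 1.32 and 1.38% against 1.76 and 1.87%. None of these 3 overlapped between groups. The same held for 5 of the 6 other heavy-strand mRNAs (mt-Co1, mt-Co2, mt-Atp8, mt-Atp6 and mt-Co3, each with a higher share in isolated mitochondria). Scaled in the same way, 98.5% of all genes tested were lower and 0.347% higher without overlap, nearly all of the former nuclear, so non-overlap is not particular to the members. The shares of the other members overlapped. mt-Nd1 took 11.4 and 11.6% against 12.4 and 11.3%, and mt-Nd4 took 8.60 and 8.77% against 8.64 and 8.32%. For mt-Nd3 the shares were 0.428 and 0.498% against 0.427 and 0.434%.

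After each library was rescaled to its total over the 13 mRNAs, limma called 2 of the 6 mRNAs, mt-Nd2 lower and mt-Nd4l higher. The relative log2 fold change of mt-Nd2 was -0.47 (SE 0.15, adjusted p = 0.0309) and that of mt-Nd4l 0.43 (SE 0.15, adjusted p = 0.0455). Under this scaling 97.9% of all genes tested were called lower, nearly all of them nuclear, and 0.0578% higher, so the adjustment hardly raised the p-values. Among the other mitochondrial mRNAs 0 of 6 on the heavy strand were called by limma, also 0 at an unadjusted p under 0.05. For mt-Nd6 the value was -0.75 (SE 0.28, adjusted p = 0.0534). mt-Nd5 did not pass the threshold (-0.26, SE 0.11, adjusted p = 0.0765). mt-Nd1 (0.05, SE 0.11), mt-Nd3 (-0.10, SE 0.20) and mt-Nd4 (-0.03, SE 0.10) lay within 1 SE of 0. Of the 22 mitochondrial tRNAs 13 were lower and 1 was higher on the same scale, with a median of -1.04, and the rRNA mt-Rnr2 was higher.

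Both calls were lost in some of the fits that leave out 1 library and so keep 1 library in a group. Over these fits the estimate of mt-Nd2 ranged from -0.61 to -0.33 and that of mt-Nd4l from 0.39 to 0.47. The call of mt-Nd2 was lost without remaining tissue replicate 1 (-0.48) and without isolated mitochondria replicate 2 (-0.33). That of mt-Nd4l was lost without remaining tissue replicate 1 (0.40) or replicate 2 (0.46). It was also lost when libraries were scaled to all 37 mitochondrial genes (0.11, adjusted p = 0.713) or to the 7 other mitochondrial mRNAs (0.34, adjusted p = 0.0943). In all, mt-Nd2 passed the threshold in 11 of 14 alternatives and mt-Nd4l in 8 of 14. The direction of each was the same in all 14 alternatives run. mt-Nd4l and mt-Nd4, though read from 1 mRNA, had relative changes of 0.43 and -0.03. With the counts of nuclear copies added, they were 0.39 (adjusted p = 0.0377) and -0.09 (adjusted p = 0.392). The fragmentation time was adjusted for the mitochondrial RNA. Fragmentation, any treatment with RNase A and fraction therefore cannot be told apart. mt-Nd4l is the shortest of the 6, and mt-Nd3, the next shortest at 348 nt, had a relative change of -0.10. Outside the members, the shorter mt-Atp8 (204 nt) had 0.48 (SE 0.29) and was not called. A part of length in these changes was not tested.

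**Figure D3:**
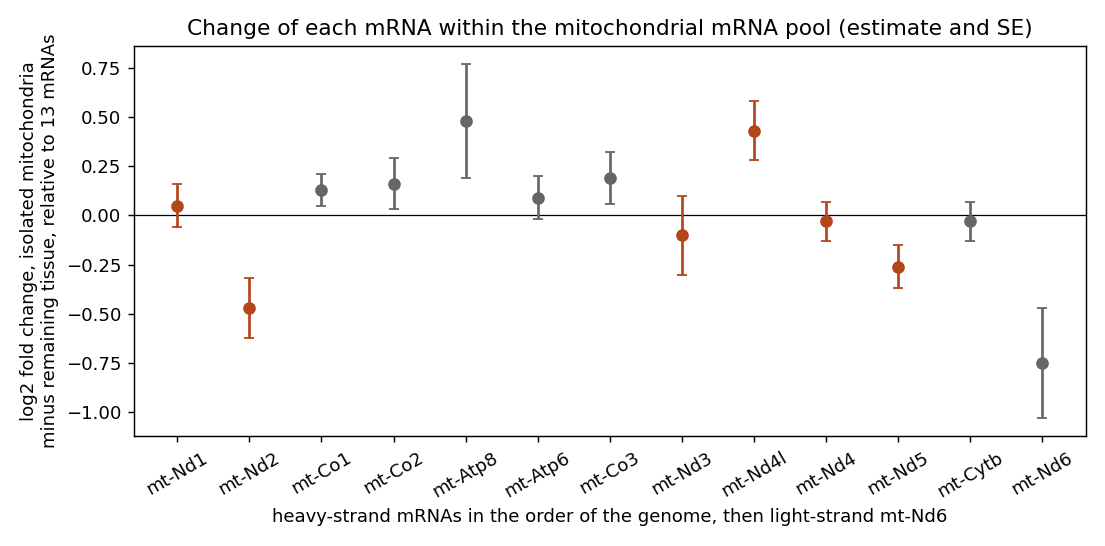
Log2 fold change of each mitochondrial mRNA in isolated mitochondria minus remaining tissue after scaling to the 13 mRNAs (points, limma estimate; bars, SE), with complex I heavy-strand mRNAs in red and other mRNAs in grey. mt-Nd2 lies at -0.47, mt-Nd4l at 0.43 and mt-Nd6 at -0.75, while mt-Nd1, mt-Nd3 and mt-Nd4 lie within 1 SE of 0.

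Levels of different genes were compared per base of annotated length, as a percent of the summed counts per base of the 13 mRNAs. On this scale mt-Nd1 was the highest of the 6 in every library and came below only mt-Co1 and mt-Atp6 among the 13 mRNAs. It stood at 12.6 and 12.7% in remaining tissue and 13.1 and 12.3% in isolated mitochondria. The order among the others in remaining tissue was mt-Nd5 (8.26 and 8.17%), mt-Nd2 (7.59 and 7.67%), mt-Nd4 (6.65 and 6.70%), mt-Nd4l (4.72 and 4.88%) and mt-Nd3 (1.31 and 1.51%), and neighbours in this order did not overlap. In isolated mitochondria the middle of the order was closed up. mt-Nd5 stood at 6.18 and 7.15%, mt-Nd4l at 6.0 and 6.54%, mt-Nd4 at 6.36 and 6.27%, and mt-Nd2 at 5.82 and 4.91%. There mt-Nd5, mt-Nd4 and mt-Nd4l overlapped, while mt-Nd2 lay below these 3 in both libraries. mt-Nd3 was the lowest of the 6 in every library, at 1.24 and 1.3% in isolated mitochondria, and of the 13 mRNAs stood above mt-Nd6 alone.

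The 6 mRNAs of this strand spanned about 10-fold per base. mt-Nd1 exceeded mt-Nd3 by 9.65 and 8.46 times per base in remaining tissue and by 10.6 and 9.48 times in isolated mitochondria. The size of this gap depends on the nuclear copies. With their counts added, mt-Nd3 stood at 1.87 and 2.11% in remaining tissue and 1.74 and 1.82% in isolated mitochondria, and the highest member exceeded it by 4.30 to 5.25 times. mt-Nd3 was then still the lowest of the 6 in every library. mt-Nd4l moved up to 6.75 and 6.99% in remaining tissue and 8.33 and 9.10% in isolated mitochondria, above mt-Nd4 in each library (6.18 and 6.19%, then 5.64 and 5.59%), and in isolated mitochondria replicate 2 also above mt-Nd1 at 8.52%. Adding copies may not restore all reads of shared sequence. With the count of its copy subtracted, mt-Nd4 held 3.8 to 4.58 times as many counts per base outside the shared part as its copy did. Levels of mt-Nd3 and mt-Nd4l may therefore be too low even with copies added, and their place in the order is not settled. Among mt-Nd1, mt-Nd2 and mt-Nd5, whose windows were rarely shared, mt-Nd1 was the highest in every library with and without copies. mt-Nd5 lay above mt-Nd2 in every library, but with copies added mt-Nd2 stood at 4.34% and mt-Nd5 at 4.30% in isolated mitochondria replicate 1. Without copies, mt-Nd1 stood at 1.66 and 1.66 times mt-Nd2 in remaining tissue and 2.26 and 2.50 times in isolated mitochondria.

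**Figure D4:**
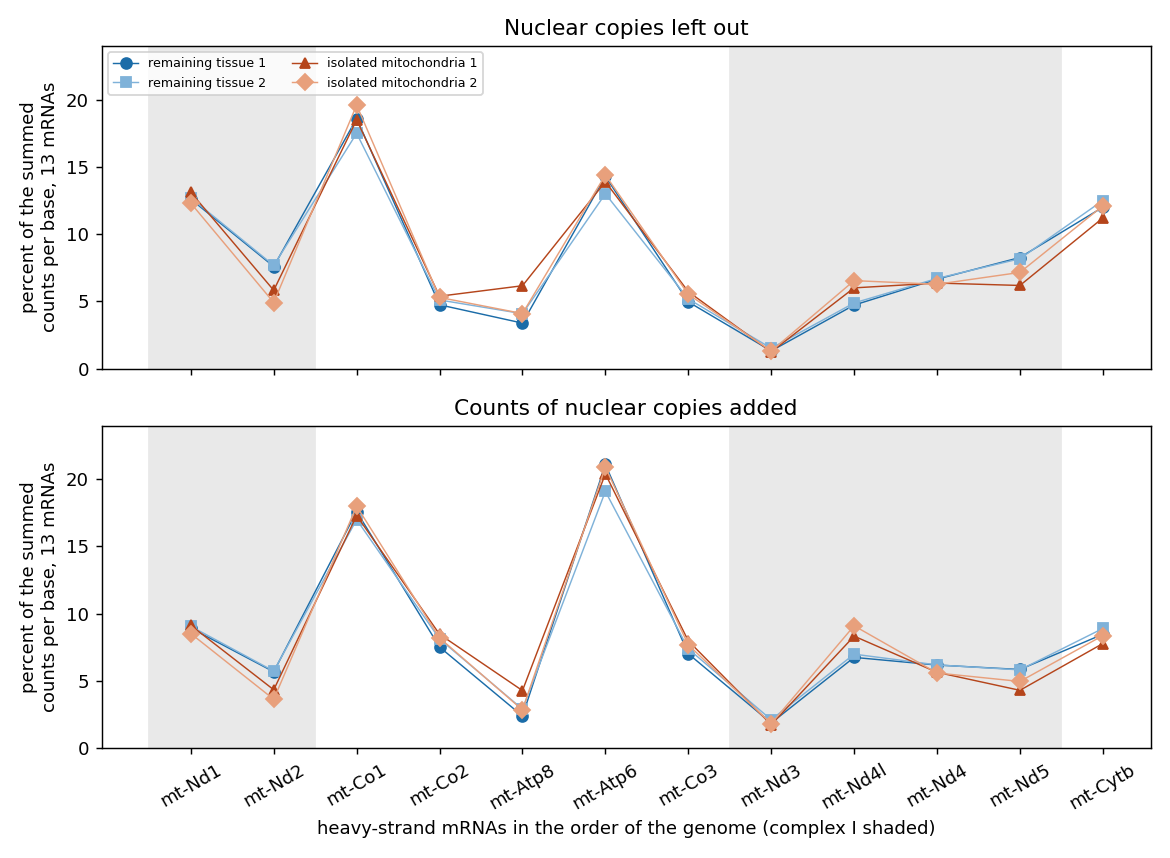
Counts per base of each heavy-strand mRNA as a percent of the sum over the 13 mitochondrial mRNAs, in genome order, with 1 line per library; the upper panel leaves nuclear copies out and the lower panel adds their counts. In the shaded complex I genes the level is highest at mt-Nd1 in the upper panel and lowest at mt-Nd3 in both. Lines of isolated mitochondria lie below those of remaining tissue at mt-Nd2 and mt-Nd5 and above them at mt-Nd4l.

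Steps between neighbours along the strand do not depend on scaling between libraries. Of the 11 pairs of neighbouring heavy-strand mRNAs, 7 had log2 ratios that did not overlap between groups, and these were the 7 pairs that include a complex I mRNA. The 4 pairs without one overlapped. With 2 libraries against 2, non-overlap can reach a two-sided p of 0.333 at best by an exact permutation test. The step from mt-Nd1 down to mt-Nd2 was 0.74 and 0.73 on the log2 scale in remaining tissue and 1.17 and 1.32 in isolated mitochondria. From mt-Nd2 up to mt-Co1 the log2 ratio was -1.29 and -1.19 against -1.67 and -1.99. Both pairs share mt-Nd2, so they are not separate observations. The ratio of mt-Nd3 to mt-Nd4l was -1.85 and -1.70 against -2.27 and -2.34, and that of mt-Nd4l to mt-Nd4 was -0.50 and -0.46 against -0.08 and 0.06. These share mt-Nd4l in the same way. For mt-Nd4 to mt-Nd5 the values were -0.31 and -0.29 against 0.04 and -0.19, the narrowest gap between groups among the pairs within complex I. The pair of mt-Nd5 and mt-Cytb shares mt-Nd5 with it. In the pair of mt-Co3 and mt-Nd3, the share of mt-Nd3 among the mRNAs overlapped between groups, while that of mt-Co3 did not. With copies added, the same 7 pairs did not overlap.

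At the junction of the strands, mt-Nd5 exceeded mt-Nd6 by 9.41 and 8.55 times per base in remaining tissue and by 14.4 and 11.0 times in isolated mitochondria. mt-Nd6, the only complex I subunit of the light strand, took 0.428 and 0.471% of mRNA counts against 0.220 and 0.325%. Its groups did not overlap.

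The pattern of the 6 mRNAs over the 4 libraries was compared with that of all other genes tested, by the Euclidean distance of centred log2 values to the mean of the members. The nearest were Gm28438 (0.077), mt-Cytb (0.082), Gm13340 (0.088), mt-Tm (0.125) and Gm28439 (0.126). Of these, Gm28438 and Gm28439 are the copies of mt-Nd3 and mt-Nd4 named above, Gm13340 is a copy of mt-Co1, mt-Cytb encodes cytochrome b of complex III and mt-Tm the tRNA that precedes mt-Nd2. Among the members, mt-Nd4 lay nearest to their mean (0.043), and mt-Nd4l (0.501) and mt-Nd2 (0.439) lay farthest from it.

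To set the mitochondrial mRNAs beside their nuclear partners, transcripts of nuclear complex I genes were taken from the same fit. Of 37 nuclear subunit genes listed, 36 were in the table and tested, with a median log2 fold change of -0.45 under the deposited scaling, beside -0.44 over all genes. None was higher and 2 were lower by limma, beside 7.32% of all genes called higher and 9.3% called lower. The 2 were Ndufs1, a core subunit with iron-sulphur clusters, and Ndufb4, an accessory subunit of the membrane arm. Ndufs1 had 417 and 379 normalized counts in remaining tissue and 208 and 202 in isolated mitochondria (-0.95, SE 0.18, adjusted p = 0.0422), and Ndufb4 had 135 and 130 against 54 and 61 (-1.19, SE 0.23, adjusted p = 0.0422). The lowest estimates were those of Ndufb3 (-2.92, SE 1.81), Ndufc1 (-1.84, SE 0.64) and Ndufb6 (-1.36, SE 0.58), and the highest those of Ndufv3 (0.61, SE 0.21), Ndufa2 (0.23, SE 0.26) and Ndufa1 (0.17, SE 0.77). None of these 6 passed the threshold. These values rest on few reads, since in isolated mitochondria the median subunit gene was covered by 14.0 reads in replicate 1 and 18.0 in replicate 2. As a share of all counts, nuclear subunits summed to 2740 and 2720 ppm in remaining tissue and 12.6 and 23.0 ppm in isolated mitochondria. The count of lower subunit genes depends on the scaling, with 36 of 36 lower after scaling by the summed count of all genes. Under that scaling the median over all genes tested was -7.27, so most other genes fell as well. The share of all genes called lower under it is not given here. The count of lower subunit genes also changed in both directions when 1 library was left out, in fits that keep 1 library in a group.

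Of 16 complex I assembly factors listed, 8 could be tested and 0 passed the threshold in either direction by limma, with a median of -0.28. Of 23 genes for mitochondrial RNA synthesis and processing listed, 12 could be tested and 0 passed by limma, with a median of -1.15. Log2 fold changes of the tested genes of this list ran from -2.1 to 0.69. Polrmt, the mitochondrial RNA polymerase, had 49 and 41 normalized counts in remaining tissue and 18 and 5 in isolated mitochondria (2 and 1 reads). Lrpprc, which binds and stabilizes mitochondrial mRNAs, had 187 and 184 against 100 and 71 (11 and 14 reads in isolated mitochondria). These are values of their mRNAs and not of the proteins.

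**Figure D5:**
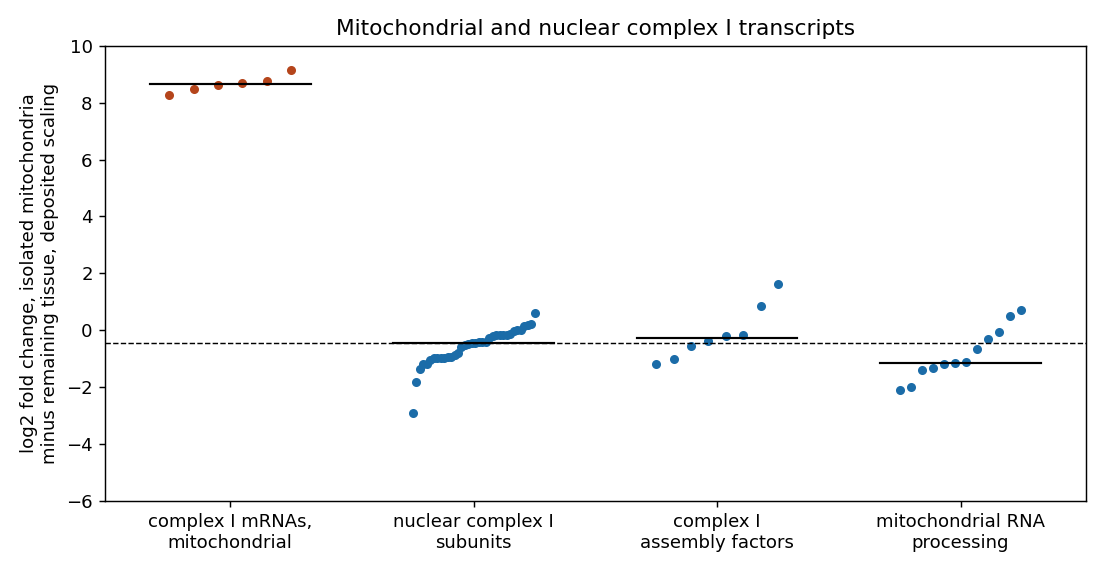
Log2 fold change (isolated mitochondria minus remaining tissue, deposited scaling) of the 6 complex I mRNAs of the heavy strand and of 3 lists of nuclear genes; 1 point per gene, solid lines at the list medians, dashed line at the median of all genes tested (-0.44). The 6 mRNAs lie between 8.26 and 9.16, and the medians of the nuclear lists at -0.45, -0.28 and -1.15.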

How the data were processed

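RNA of isolated mitochondria and of remaining tissue of mouse skeletal muscle was sequenced as 75-nt single-end reads, with 2 libraries per group. The deposited table holds a normalized signal, which is the read count of a gene after the authors applied a size factor to every library and rounded the result (normalized count). According to the submitters' processing notes and the methods of the study, Trimmomatic 0.39, STAR 2.7.10a on mm10 (GRCm38), featureCounts 2.0.2 over exons and DESeq2 1.30.1 were used; the methods name other versions. Low values were whole multiples, within a tolerance of 0.5 normalized counts for rounding, of 9.049 and 5.059 normalized counts in isolated mitochondria (99.952% of 10508 and 99.966% of 11660 values under 2000), so whole reads were recovered there. In remaining tissue an estimated 7.05 reads made 1 normalized count, so rounding hid smaller differences. The same factor was assumed for both libraries of remaining tissue.

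Genes with a mean of at least 20 (6916) were compared with limma 3.58.1 (eBayes with trend, two-sided) in R 4.3.3 on log2(normalized count + 1), with Benjamini-Hochberg adjustment over all genes tested and a threshold of 0.05, under the deposited scaling and after scaling to the 13 mitochondrial mRNAs. The pseudocount of 1 understates changes of low genes. edgeR 4.0.16 and DESeq2 1.42.0 on the reads, recovered for isolated mitochondria and estimated for remaining tissue, were alternatives. The script was checked on simulated data. Coordinates and transcripts were those of GENCODE M21, with 37 of 37 mitochondrial genes at the same coordinates, and copies were searched with BLAST+ 2.17.0 among annotated transcripts only, since no genome sequence was used. Protein sequences were not used here.

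The members, gene lists and named genes were chosen with earlier results of these data known. Named genes were the 6 members, the other mitochondrial mRNAs, the nuclear copies, the 3 highest, 3 lowest and called nuclear subunits, and the 5 nearest patterns. Polrmt, Lrpprc and mt-Rnr2 fall outside this rule and were named after their values were seen.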

Additional observations from a re-analysis of the deposited data

How the results depend on the processing

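All 6 mRNAs were called higher in isolated mitochondria under the deposited scaling and under each of the 17 alternatives to it. Relative to the mitochondrial mRNAs, 2 of 6 passed the threshold, but 0 without the variance trend, 1 with scaling to all 37 mitochondrial genes, 0 to 2 when 1 library was left out, and 3 with a pseudocount of 10 or without a filter (mt-Nd5 added, at adjusted p of 0.0312 and 0.034). With scaling to the 7 other mRNAs, mt-Nd2 (0.0195) and mt-Nd5 (0.0314) passed and mt-Nd4l (0.0943) did not. mt-Nd1 changed sign, at -0.02 without isolated mitochondria replicate 1, at -0.27 with scaling to all 37 mitochondrial genes and at -0.05 with scaling to the 7 other mRNAs, and so did mt-Nd3, at 0.01 without remaining tissue replicate 2. With 1 library left out, mt-Nd1 ranged from -0.02 to 0.11 and mt-Nd3 from -0.21 to 0.01. None of the 4 values of opposite sign passed the threshold. The joint share of the 6 mRNAs was 8.28% in remaining tissue and 6.12% in isolated mitochondria of the counts on all 37 mitochondrial genes, and 36.9% and 33.6% of mRNA counts with copies added (chosen for fits and neighbour ratios after seeing the data). The joint share per length was then 35.6% and 33.5%. Levels per window that occurs once among transcripts could not be used, since mt-Nd4l has no such window and counts lie on shared windows. The joint share on that scale was 1.49% and 1.26% with 50-nt windows and 2.40% and 2.03% with up to 1 mismatch. The number of neighbour pairs without overlap was 7 to 11 when 1 library was left out.

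Counts of nuclear genes called moved most. The median log2 fold change over all genes tested was -7.27 with scaling to all genes and -3.38 with scaling to nuclear genes. Most genes thus fell under both, and the share of all genes called is not given for the alternatives. Nuclear subunits called lower numbered 0 with a minimum mean of 5, 4 without a filter, 0 without the trend, 0 with upper-quartile scaling, 36 with scaling to all genes or to nuclear genes, 6 with edgeR, 1 with edgeR and TMM, 7 with DESeq2, and 0 to 26 when 1 library was left out. Called higher were 1 without a filter, 1 with edgeR and TMM, and 0 to 4 when 1 library was left out. Assembly factors called lower numbered 1 with a minimum mean of 5, 1 without a filter, 8 with scaling to all genes, 7 with scaling to nuclear genes and 0 to 4 when 1 library was left out, and those called higher 1 with edgeR and TMM, 1 with DESeq2 and 0 to 3. The cause of these differences was not tested.

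Samples of the 2 groups share replicate numbers, but nothing says that a number marks a shared animal, and with 2 pairs the correlation of their deviations was 0.141. With the replicate number as a block, 6 of 6 mRNAs were higher, 2 of 6 passed relative to the mitochondrial mRNAs (mt-Nd2 at an adjusted p of 0.00215 and mt-Nd5 at 0.0348, while mt-Nd4l had 0.0573), and 1 nuclear subunit was lower. The few reads of nuclear genes in isolated mitochondria limit what can be said of them.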
